A study of Mus musculus with 4 samples.

Results

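The genes described here encode the proteins of the cytoplasmic ribosome. They were chosen by symbol from the joined expression tables: every Rps or Rpl symbol followed by a number, with at most 1 further letter and digit, together with Rpsa, Rplp0, Rplp1 and Rplp2, and without pseudogene names ending in -ps. This gave 85 of 38087 listed genes. Of these, 82 varied between libraries, 33 of the small and 49 of the large subunit. The other 3, Rpl10l, Rpl39l and Rps12l1, held the same value in all libraries and carry no information.

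RNA sequencing was performed on endothelial cells sorted as eGFP+ CD31+ cells from cardiac ventricles of C57BL/6 mice, in 2 control and 2 Gata4 KO libraries. Animals of both groups carried Tie2-CreERT2, in which Tie2 promoter and enhancer sequence drives a tamoxifen-dependent Cre, and a Cre-dependent eGFP reporter at Rosa26. All were fed chow with tamoxifen citrate, at 40 mg per kg of body weight, for 4 weeks from the age of 4 weeks, and cells were isolated at 8 weeks. In the Gata4 KO group loxP-targeted Gata4, the gene of a zinc-finger transcription factor, was recombined as well. The design asks which transcripts differ in these cells once Gata4 is deleted. The names of control libraries are sums of numbers (in 1 of them not in every label), unlike those of Gata4 KO libraries, so pooling, if there was any, cannot be told apart from genotype. Separate animals are not stated for the libraries of a group, and p-values therefore measure only a spread between libraries that may be technical.

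All values are on a log2 scale on which every gene has a median of 0 over the 4 libraries, so levels cannot be compared between genes and the depth is unknown. Gata4 itself had log2 values of 0.48 and 0.14 in controls and -0.14 and -0.46 in Gata4 KO (difference -0.61, limma adjusted p = 0.663). Xist stood at 2.76 and 3.71 in the Gata4 KO libraries and at its lowest value, -2.76, in both controls, and the 4 Y-linked genes examined had the opposite order. Sex therefore cannot be told apart from genotype in any difference between groups. All 10 endothelial markers examined were among the varying genes (median difference 0.16), but the centring hides their level. Of these, 5 lay above both controls (15.7% of all varying genes) and 0 below both (17.3%). At an unadjusted limma p of 0.05, 0 were higher and 0 lower, where 2.76% and 5.36% of all varying genes were. In sorted bulk RNA, fewer cells of a type and less RNA per cell cannot be told apart.

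Ribosomal proteins assemble with ribosomal RNA in the nucleolus into a small subunit, which decodes the messenger RNA, and a large subunit, which forms the peptide bonds. Their mRNAs are abundant in nearly all cells, are made in matched amounts, and typically begin with a terminal oligopyrimidine (TOP) tract, a run of C and T that places their translation under control of mTOR. Several of these genes also carry small nucleolar RNA genes in their introns. In the mouse annotation, 30 of the 82 had such a gene inside their span on the same strand, against 3.73% of all varying genes.

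The TOP tract is shown because it is a sequence feature typical of these mRNAs, though the genes were chosen by symbol. RefSeq promoter windows (GRCm38.p6, 250 bases before to 50 after the annotated start) matched 61 of the varying genes. The lines below give 12 bases before to 18 after the annotated start, 5′ to 3′ on the gene's strand, with the longest pyrimidine run in capitals. The first 4 genes encode core proteins, and the last 4 are paralogs of core genes.
Rps6 (chr4:86857350-86857379, minus strand): cggaagtcgggCCTCTTTTTCgtgacgcct
Rplp2 (chr7:141447639-141447668, plus strand): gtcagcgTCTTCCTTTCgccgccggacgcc
Rpl15 (chr14:18270969-18270998, minus strand): ggagaaagCCTTCTTCCTTTCCTCTggcgg
Rps27 (chr3:90213631-90213660, minus strand): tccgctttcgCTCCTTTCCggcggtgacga
Rps27l (chr9:66946074-66946103, plus strand): CTCCTCCCCgccgcctctatcccggaagtt
Rpl22l1 (chr3:28805496-28805525, plus strand): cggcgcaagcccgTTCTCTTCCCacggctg
Rpl3l (chr17:24727814-24727843, plus strand): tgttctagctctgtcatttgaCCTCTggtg
Rpl7l1 (chr17:46782639-46782668, minus strand): aggCTgcgcaagcgcagtagctgaagcacc
Within the printed stretch the longest runs were 10, 10, 17 and 9 bases in the core genes, and 9, 10, 5 and 2 in the paralogs. A run that reaches an edge of the stretch, as in Rps27l, may continue beyond it. Annotated starts can lie some bases away from the start used in cells, so a run near the start is a description and not a mapped tract. Within 50 bases on either side of the start, a run of at least 10 pyrimidines on the sense strand was present in 43 of 61 ribosomal protein genes (70.5%) and in 20.6% of the 27025 genes with a promoter window. The 7-base string CTCTTTC on the same strand and stretch, which often lies inside such runs, was present in 12 of 61 (19.7%) against 1.62%.

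A further string, CCGGAAG, contains the GGAA core recognised by ETS factors. On either strand of the whole window it was found in 25 of 61 ribosomal protein genes (41.0%) and in 9.93% of all genes. It is shown in capitals for 3 large subunit genes in which it lies just after the annotated start.
Rpl26 (chr11:68901559-68901588, plus strand): aacttacagaaCCGGAAGtcgcgtgtagtt
Rpl11 (chr4:136053369-136053398, minus strand): aggccacggggCCGGAAGtctccctctctc
Rpl31 (chr1:39367848-39367877, plus strand): ctccccgtgacCCGGAAGttgtacggctac
A match shows only that the letters are in the window and says nothing about binding.

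Between the genotypes, the ribosomal protein genes did not move as a group in these libraries. The median log2 difference, Gata4 KO minus control, was -0.048 over the 82 genes and -0.0088 over all 14470 varying genes. The interquartile range of the ribosomal protein genes was -0.15 to 0.046, and 72 of 82 differed by less than 0.25 in size, against 52.2% of all varying genes. By limma with Benjamini-Hochberg adjustment over all varying genes, 0 of the 82 passed an adjusted p of 0.05, as did 0 of all genes (0%). Even Xist, with a difference of 6.00, had a limma adjusted p of 0.0582, so the absence of adjusted calls says little about smaller differences. At an unadjusted p of 0.05, 0 were higher and 0 lower, where 2.76% of all varying genes were called higher and 5.36% lower (8.12% in either direction). The 2 Gata4 KO values lay above both controls in 4 of 82 genes (background 15.7%) and below both in 3 (background 17.3%), and the groups overlapped in the other 75.

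The absence of a call does not show equality. The 95% interval of the difference covered 0 in all 82 genes, and reached a median of 0.76 to either side on the log2 scale, and in 58 genes it stayed between -1 and 1. The reach to either side ran from 0.56 to 1.69 over the 82 genes. It describes the uncertainty of each difference with 2 libraries a group and is not a limit of detection. No exact permutation test of 2 against 2 libraries can give a two-sided p below 0.333.

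**Figure D1:**
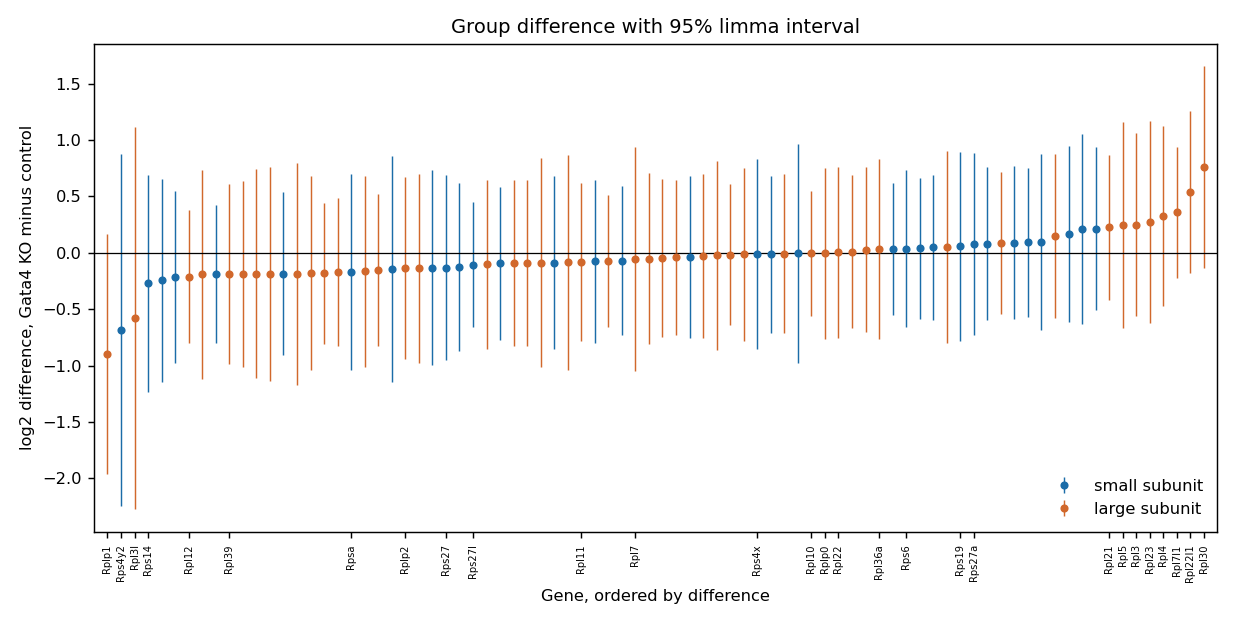
Log2 difference, Gata4 KO minus control, for each of the 82 ribosomal protein genes in rising order, with its 95% limma interval as a line, colours for the subunit and names for genes described in the text. All intervals cover 0, and Rplp1 (-0.90) and Rpl30 (0.76) stand at the ends.

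The subunits are given side by side, with no test of the difference between them. Small subunit genes had a median difference of -0.037, with 0 above and 1 below both controls. Large subunit genes had a median of -0.051, with 4 above (8.16%) and 2 below (4.08%). Of all varying genes, 15.7% lay above and 17.3% below both controls. Neither subunit had a gene called in either direction at an unadjusted limma p of 0.05, where 2.76% of all varying genes were higher and 5.36% lower.

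Within groups the ribosomal protein genes differed between libraries, and more between the Gata4 KO libraries than between the controls. Their median log2 value was -0.082 and 0.082 in the controls, 0.22 in Gata4 KO 1 and -0.29 in Gata4 KO 2. Gata4 KO 1 was thus the highest library and Gata4 KO 2 the lowest, with both controls between them. In 81 of 82 genes the value in Gata4 KO 1 exceeded that in Gata4 KO 2, where 43.6% of all varying genes did. The median gap was 0.565 on the log2 scale, a 1.48-fold difference (interquartile range 0.43 to 0.73), against a median of 0 over all varying genes. This gap within the group was larger than the difference between groups in 80 of 82 genes, against 52.2% of all varying genes.

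**Figure D2:**
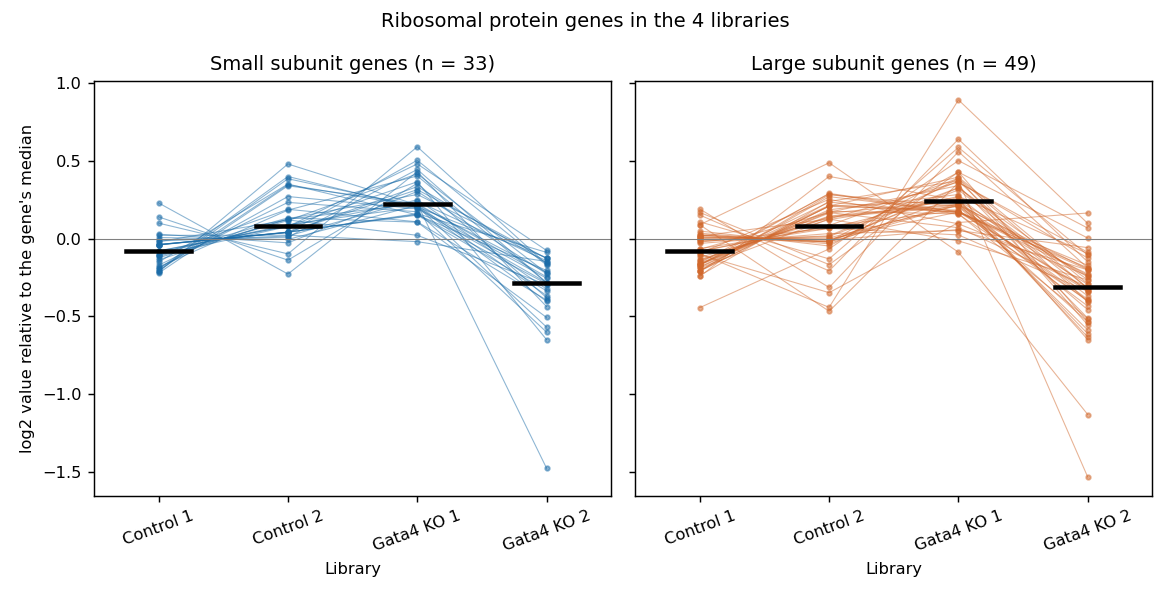
Log2 value relative to the gene's median over the 4 libraries, for small subunit (left, n = 33) and large subunit genes (right, n = 49). Each thin line joins the values of 1 gene and black bars are medians; in both panels the median is highest in Gata4 KO 1 and lowest in Gata4 KO 2.

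The direction of the group difference depended on which Gata4 KO library was kept. Without Gata4 KO 1 the median difference over the 82 genes was -0.32, with 77 genes below 0 (51% of all varying genes) and 70 below both controls (28.1%). Without Gata4 KO 2 it was 0.22, with 78 genes above 0 (45.7% of all varying genes) and 56 above both controls (29.2%). The median of all varying genes was -0.0093 and -0.018 in these fits. Under quantile normalization of the libraries 41 genes were above 0 and 41 below, beside 28 above and 54 below as deposited, and under centring of libraries on their medians 36 were above and 46 below.

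Counting which library was highest and which lowest gives the same picture gene by gene. In 45 of 82 genes Gata4 KO 1 was highest and Gata4 KO 2 lowest, an order found in 7.26% of all varying genes. In 25 more, control 2 was highest and Gata4 KO 2 lowest, against 8.05% of genes without a tie at the lowest value. Only 12 genes did not have their lowest value in Gata4 KO 2, against 9983 of all 14470 varying genes. Rpl21, Rpl23, Rpl3, Rpl30, Rpl4 and Rpl5 were lowest in control 2 with Gata4 KO 1 highest. Rpl22l1, Rpl29, Rps12 and Rps26 were lowest in control 1 with Gata4 KO 1 highest, and Rpl7l1 and Rpl41 followed orders of their own. No ribosomal protein gene was highest in control 1. Of genes without a tie, 14.5%, 10.2% and 9.02% were, with control 2, Gata4 KO 1 and Gata4 KO 2 lowest respectively.

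Among core small subunit genes, Rps6, whose protein is phosphorylated by S6 kinases downstream of mTOR, had log2 values of 0.028 and -0.028 in controls and 0.30 and -0.23 in Gata4 KO. Rps19, mutated in human Diamond-Blackfan anaemia, had -0.18 and 0.18 in controls and 0.40 and -0.28 in Gata4 KO. Rps27a, which encodes a fusion of ubiquitin with a small subunit protein, had -0.0082 and 0.0082 against 0.44 and -0.28. In each of these genes the controls lay inside the range of the Gata4 KO libraries. Their differences were 0.038, 0.059 and 0.080, with limma adjusted p of 0.984, 0.981 and 0.977.

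Rpsa, a small subunit gene whose product is also known as the laminin receptor, had -0.21 and 0.35 in controls against 0.21 and -0.40. Rps14, a small subunit gene with 1 of the 5 lowest differences, had -0.21 and 0.38 against 0.21 and -0.57. In both the lowest value was that of Gata4 KO 2 and the other Gata4 KO library lay between the controls. Their differences were -0.17 and -0.27 with intervals that cover 0, and without Gata4 KO 2 they changed sign to 0.14 and 0.12.

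Stalk proteins form the flexible arm of the large subunit that recruits translation factors. Rplp0, the base of the stalk, had -0.21 and 0.21 in controls and 0.24 and -0.25 in Gata4 KO, and Rplp2 had -0.18 and 0.21 against 0.18 and -0.43. Rplp1, the partner of Rplp2 (ENSMUSG00000007892, mm10 chromosome 9, 61913284 to 61914542), had 0.088 and 0.49 in controls against -0.088 and -1.13. It was the lowest of all 82 genes and 1 of 3 with both Gata4 KO values below both controls. The difference was -0.90, or 1.86-fold, with a standard error of 0.41, a 95% interval of -1.96 to 0.17 and a limma adjusted p of 0.706. The differences of Rplp0 and Rplp2 were -0.0022 and -0.14, and the contrast with Rplp1 was not tested. Without Gata4 KO 2 the difference of Rplp1 was -0.38. Without Gata4 KO 1 it was -1.42. The unadjusted limma p of Rplp1, 0.0823, fell under 0.05 when genes tied at their lowest value were left out of the fit, but its adjusted p did not. Rpl12, which binds at the stalk base, had 0.015 and 0.12 in controls against -0.015 and -0.27, also without overlap (difference -0.21, adjusted p = 0.881).

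At the upper end stood Rpl30 (ENSMUSG00000058600, mm10 chromosome 15, 34440505 to 34443640), a large subunit gene, with -0.097 and -0.44 in controls against 0.89 and 0.097 in Gata4 KO. The groups did not overlap, and the difference was 0.76, or 1.70-fold, with a standard error of 0.35, a 95% interval of -0.13 to 1.66 and a limma adjusted p of 0.699. Without Gata4 KO 1 it was 0.37, and without Gata4 KO 2 it was 1.16. The Gata4 KO values were far apart. Rpl21, another large subunit gene, was the only other core gene above both controls, at -0.0029 and -0.020 against 0.43 and 0.0029, where the groups all but touched (difference 0.23, adjusted p = 0.885).

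Rpl4, which lines the exit tunnel of the growing peptide, had 0.088 and -0.47 in controls against 0.36 and -0.088, and Rpl3, near the peptidyl transferase centre, 0.11 and -0.13 against 0.58 and -0.11. Rpl23 had 0.15 and -0.21 against 0.64 and -0.15. Differences of 0.32, 0.25 and 0.27 placed these among the higher genes, yet the groups overlapped in each. Rpl5 and Rpl11 bind MDM2 when ribosome assembly fails. Rpl5 had 0.19 and -0.31 against 0.56 and -0.19, and Rpl11 -0.080 and 0.080 against 0.18 and -0.34 (differences 0.25 and -0.080), so their order over the controls was opposite while Gata4 KO 1 was above Gata4 KO 2 in both.

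The paralogs are closely related copies of core genes and are described with their partners. Rpl22l1 (ENSMUSG00000039221), a paralog of Rpl22, had -0.44 and -0.067 in controls against 0.50 and 0.067 in Gata4 KO (difference 0.54, interval -0.18 to 1.26, limma adjusted p = 0.768), while Rpl22 had -0.013 and 0.013 against 0.33 and -0.32. Rpl7l1, a paralog of Rpl7, had -0.10 and -0.35 against 0.10 and 0.16. It was the only gene of the 82 with Gata4 KO 2 above Gata4 KO 1, and its difference was 0.36 (interval -0.225 to 0.94, adjusted p = 0.842). Without control 1 its difference was 0.48. Rpl7 had 0.17 and -0.17 against 0.43 and -0.53. Both paralogs lay above both controls and their partners did not, but neither difference between paralog and partner was tested.

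Rps27l, a paralog of Rps27 known as a target of p53, had 0.020 and 0.021 in controls against -0.020 and -0.15, a small range in which the groups did not overlap (difference -0.10, adjusted p = 0.941). Rps27 had -0.20 and 0.40 against 0.20 and -0.255, and overlapped. Rpl3l (ENSMUSG00000002500), the striated muscle paralog of Rpl3, had -0.24 and 0.24 against 0.37 and -1.53, the widest gap between Gata4 KO libraries of all 82 (1.90). Its interval was accordingly wide, from -2.27 to 1.11. The 10 cardiomyocyte markers examined had medians of 0.15 and 0.25 in controls and -0.018 and -0.49 in Gata4 KO 1 and 2. Of these, 6 were below both controls (17.3% of all varying genes) and 3 were lower at an unadjusted limma p of 0.05 (5.36%). Their differences ran from -4.69 (Myl7) to -0.013 (Pln), with a median of -0.40. Myl7 had 2.26 and 2.58 in controls and its lowest value, -2.26, in both Gata4 KO libraries. The part of these markers in the values of Rpl3l was not tested. Rps4y2 (ENSMUSG00000063171), which GENCODE M21 names Rps4l and lists as a transcribed processed pseudogene, came next with -0.22 and 0.34 against 0.22 and -1.47. How reads shared with near-identical copies were assigned is not given, so its value is uncertain.

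The X-linked members, examined because the groups appear to differ in sex, showed small differences. Rps4x had log2 values of 0.14 and -0.14 in controls against 0.35 and -0.38 (difference -0.013), and Rpl10, which is added last to the large subunit, -0.031 and 0.031 against 0.051 and -0.059 (difference -0.0037). Rpl36a had 0.048 and -0.048 against 0.39 and -0.32 (difference 0.033), and Rpl39, a tunnel protein, -0.16 and 0.29 against 0.16 and -0.40 (difference -0.19). In each the groups overlapped, with intervals reaching 0.55 or more in either direction. Of these, Rpl10 was the steadiest, with a gap of 0.11 between the Gata4 KO libraries.

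The controls did not split the family evenly. Control 2 was above control 1 in 61 of 82 genes (35.8% of all varying genes), with a median gap of 0.16 and an interquartile range of -0.0056 to 0.37. Rps15, Rpl36, Rps27 and Rps14 had the largest gaps in this direction, 0.69, 0.64, 0.59 and 0.59. Rpl4, Rpl5, Rps3a and Rpl23 had the largest in the other, -0.55, -0.50, -0.46 and -0.36.

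**Figure D3:**
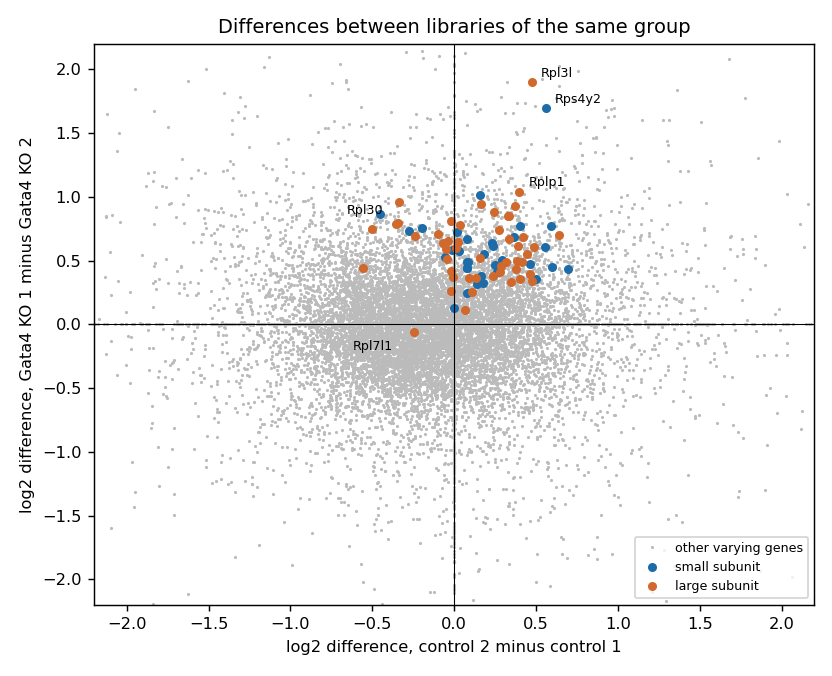
Log2 difference between the controls (control 2 minus control 1, horizontal) against that between the Gata4 KO libraries (1 minus 2, vertical) for ribosomal protein genes (coloured by subunit) and other varying genes (grey; 130 lie outside the plotted range). All ribosomal protein genes but Rpl7l1 lie above the horizontal line, and 61 of 82 lie right of the vertical one.

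The gap between controls varied with the base composition of the transcript. Over 80 ribosomal protein genes with a transcript in GENCODE M21, the GC content and the gap of control 2 over control 1 had a Spearman rho of 0.59 and a Pearson r of 0.55. All points come from the same pair of libraries, so this is a description of those libraries. Among the 13 genes with at least 55% GC the median gap was 0.46, and among the 25 with 45% to 50% it was -0.019. Other varying genes showed the same direction, with a rho of 0.46 over 11809 genes and medians of 0.18 and -0.34 in those ranges. The group difference, which contains the same controls, had a rho of -0.49 with GC content over the 80 genes, with a median difference of -0.13 at 55% GC or more and of 0.030 at 45% to 50%. Rplp1 had 57.3% GC and Rpl30 47.9%, on either side of the median of 51.5%. Whether base composition accounts for the differences of these genes was not tested. Over the other varying genes the rho of GC content with the group difference was 0.0045.

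**Figure D4:**
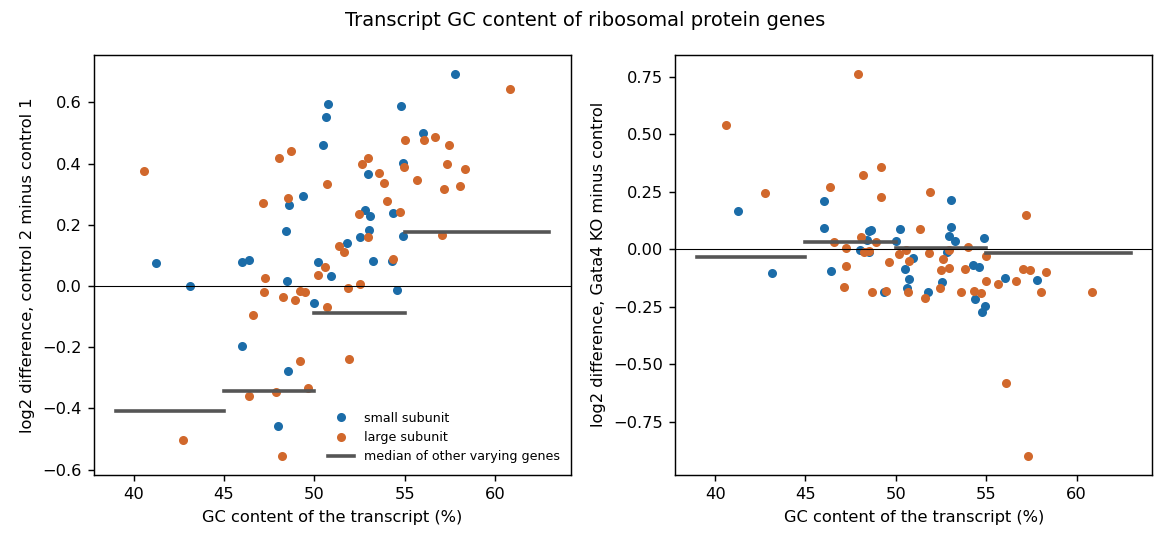
GC content of the transcript in percent (horizontal) against the log2 difference of control 2 minus control 1 (left) and of Gata4 KO minus control (right), for 80 ribosomal protein genes coloured by subunit; grey bars are medians of other varying genes in ranges of GC content. Points rise from left to right in the left panel (rho 0.59) and fall in the right one (rho -0.49).

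Between the Gata4 KO libraries the gap went with GC content by a rho of only 0.0088 over the 80 genes. Over other varying genes the gap of Gata4 KO 1 over Gata4 KO 2 had a rho of -0.28 with transcript length. Ribosomal protein transcripts are short, with a median of 768 bases against 2843 for other varying genes. In transcripts of 600 to 1000 bases, the median gap was 0.52 for 34 ribosomal protein genes and 0.19 for 654 other genes. Below 600 bases it was 0.64 for 25 and 0.19 for 233, and from 1000 to 1500 bases 0.57 for 13 and 0.13 for 1263. In each of these ranges of length the median of ribosomal protein genes was the larger one. Within the family, length and gap had a rho of -0.064. The part of transcript length in this gap was not tested.

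The promoter strings were set against the same gap, with no test. The 43 genes with a run of at least 10 pyrimidines near the start had a median gap between Gata4 KO libraries of 0.55 and the 18 without one 0.48. The corresponding medians with and without CCGGAAG were 0.55 and 0.49, and with and without CTCTTTC 0.62 and 0.51. For the other 3 strings searched the order was the opposite. With and without AAGATGG (either strand, whole window) the medians were 0.49 and 0.53, with and without the palindromic CGCG element (either strand, whole window) 0.498 and 0.52, and with and without TATAA (sense strand, 50 bases either side of the start) 0.45 and 0.56. These 3 were present in 10, 6 and 10 of the 61 genes (16.4%, 9.84% and 16.4%), against 7.28%, 0.525% and 7.97% of all genes.

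Other families of large assemblies showed a smaller gap of the same sign. Gata4 KO 1 was above Gata4 KO 2 in 79 of 88 nuclear-encoded respiratory chain genes (median gap 0.36) and in 33 of 37 proteasome genes (0.33). The same held in 61 of 76 mitochondrial ribosomal protein genes (0.26), against 43.6% of all varying genes. The difference between these families and the cytoplasmic ribosomal protein genes was not tested. Markers of some other cells also differed between the Gata4 KO libraries. Fibroblast markers were higher in Gata4 KO 1 than in Gata4 KO 2 in 10 of 10 genes (median gap 0.56). Cardiomyocyte markers were so in 9 of 10 (0.39) and macrophage markers in 2 of 9 (-0.52). Mural markers were so in 5 of 10 (-0.0105) and endothelial markers in 6 of 10 (0.012). Erythroid markers were so in 3 of 4 (0.46) and lymphocyte markers in 0 of 3 (-0.28). The fibroblast markers were also below both controls in all 10 genes (17.3% of all varying genes). Their medians were 1.30 and 0.32 in controls against -0.32 and -0.97. Macrophage markers were below both controls in 8 of 9 genes (17.3% of all varying genes), with medians of 0.57 and 0.30 against -0.77 and -0.46. Their median difference was -1.27, beside -1.45 for fibroblast markers. At the unadjusted limma p 7 of 9 macrophage and 6 of 10 fibroblast markers were lower (5.36% of all varying genes), and 0 passed the adjusted p. Genes of the response to tissue dissociation were above both controls in 12 of 14 (15.7% of all varying genes). Their medians were -0.42 and -0.40 against 0.26 and 0.53, with the higher value in Gata4 KO 2. The part of other cells or of the dissociation response in the ribosomal protein values was not tested.

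**Figure D5:**
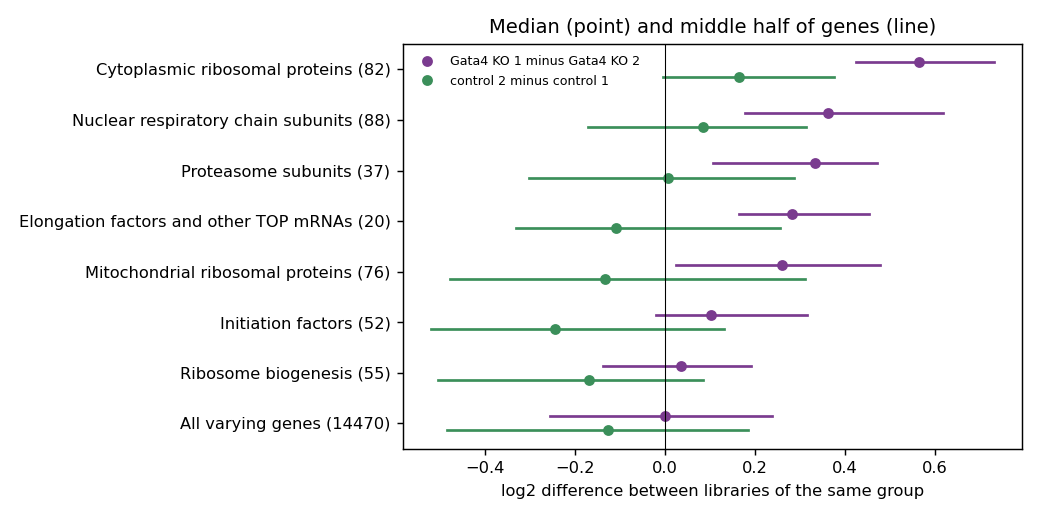
Median log2 difference between libraries of the same group (points) with the interquartile range of the genes (lines), for cytoplasmic ribosomal protein genes, 6 other gene lists and all varying genes, with the number of genes in brackets. The gap of Gata4 KO 1 over Gata4 KO 2 is 0.565 for ribosomal protein genes and 0 for all varying genes.

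Genes that share the TOP tract or work beside the ribosome were examined as well. Of 20 elongation factor and other TOP mRNA genes, 0 were called at an unadjusted limma p of 0.05 in either direction (8.12% of all varying genes). In 19 of 20 the value in Gata4 KO 1 exceeded that in Gata4 KO 2 (43.6% of all varying genes), with a median gap of 0.28. Fau, which encodes a ribosomal protein fused to a ubiquitin-like protein under another symbol, had -0.26 and 0.38 in controls against 0.26 and -0.55, with control 2 highest and Gata4 KO 2 lowest. Hnrnpa1, an RNA-binding protein gene, Eif4b, an initiation factor gene, and Tpt1, the gene of translationally controlled tumour protein, had the smallest p of that list, with differences of 0.51, 0.26 and 0.19 (limma adjusted p = 0.842, 0.853 and 0.907).

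Of 55 ribosome biogenesis genes, 1 was higher and 1 lower at the unadjusted limma p (2.76% and 5.36% of all varying genes). The Gata4 KO values lay above both controls in 12 (21.8%, background 15.7%) and below both in 6 (10.9%, background 17.3%). The median gap between Gata4 KO libraries was 0.036, against 0 over all varying genes. Nop56, a small nucleolar ribonucleoprotein gene, had -0.27 and -0.41 in controls against 0.29 and 0.27 (difference 0.63, limma adjusted p = 0.555). Rrp12, a gene of ribosomal RNA processing, had 0.27 and 0.400 against -0.27 and -0.38 (difference -0.67, adjusted p = 0.533), and Eftud1, a factor for release of Eif6, a difference of -0.72 (adjusted p = 0.663). In both Nop56 and Rrp12 libraries of the same group were close together.

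Of 76 mitochondrial ribosomal protein genes, 1 was higher and 2 were lower at the unadjusted limma p (2.76% and 5.36% of all varying genes). Mrps18b had a difference of 0.84, Mrps34 of -0.80 and Mrpl15 of -0.71 (limma adjusted p = 0.463, 0.541 and 0.567). Of 52 initiation factor symbols, 1 was higher and 1 lower, the latter being the Y-linked Eif2s3y (difference -2.06); Eif2s3x, its X-linked counterpart, had 0.86 (adjusted p = 0.659). The higher one was Eif2c2, an older symbol of the Argonaute gene Ago2 that the pattern also takes in (difference 0.97, adjusted p = 0.521).

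Among genes that control ribosomal protein output, Myc, a transcription factor gene that drives ribosome production, had 0.41 and 0.47 in controls against -0.41 and -0.48. The groups were well apart, with a difference of -0.89, a standard error of 0.21, an unadjusted limma p of 0.0091 and an adjusted p of 0.407. Of the 22 genes of mTOR and MYC control it alone was called at the unadjusted p. Ddit4 and Sesn3, inhibitors of mTOR signalling, had differences of 0.56 and -0.90 (adjusted p = 0.693 and 0.708), and Mtor itself -0.059. In the list of 8 p53 and ribosomal stress genes 0 were called. Ccng1, Zmat3 and Phlda3, targets of p53, had the smallest p there, with differences of -0.58, -0.70 and -0.50 (adjusted p = 0.643, 0.829 and 0.834), while Cdkn1a had -0.038 and Mdm2 0.35.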

How the data were processed

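The authors deposited log2 values for every library, split into one table of genes higher in Gata4 KO and one of all other genes. Each table also holds the log2 fold change and a signed fold change, a score in the tables as the authors deposited them, which was not used. Per the file headers, the tables were exported from a comparison on Ensembl genes. The submitters' processing notes name mm10 as genome build. How reads were aligned, counted and normalized, and which unit was logged, is not given in the sources used here, so depth is unknown. In all 38087 genes the median of the 4 libraries was 0 (tolerance 1e-05).

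Both tables were joined, and 14470 genes that varied were fitted by genotype with lmFit and eBayes of limma 3.58.1 (R 4.3.3; no mean trend, two-sided, Benjamini-Hochberg over all). The fit was tested on simulated data. Lists are given as counts and medians with no set test. The genes and lists were chosen with earlier results of these data known. Genes named are the 10 smallest p, the 5 highest and lowest differences, paralogs and their partners, X-linked, stalk and other genes set by name, and the 3 smallest p of each pathway list; Fau, Mtor, Cdkn1a, Mdm2 and those named only for their order or control gap were chosen after values were seen. Of the genes so named, 1 is not reported here.

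Positions, transcript length and GC content were taken from GENCODE M21 (GRCm38, the assembly of mm10), using the protein-coding transcript with the longest coding sequence. Identifiers matched for 81 of 82 genes; the identifier deposited as Rpl24 belongs to Zbtb11 there and was given no position. Ribosomal protein genes have many near-identical pseudogenes (219 rows named -ps, 34 varying, left out), and how shared reads were assigned is not given, so every value here may include reads of copies. Control and Gata4 KO replicate numbers follow the order of deposition.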

Additional observations from a re-analysis of the deposited data

How the results depend on the processing

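No paired analysis was possible because the labels give no replicate numbers that link libraries across groups. With a mean trend, with robust eBayes, without tied genes and under either rescaling, the 82 genes again had 0 adjusted calls. A mean trend, robust eBayes and the removal of tied genes cannot change the differences of these genes, so only the rescalings could move their median. It was -0.032 under library median centring and -0.0005 under quantile normalization. Both moves were smaller than the spread between library medians of a group (0.27). Over all genes the adjusted calls, 0 as reported, came to 27 with a mean trend, 7 with robust eBayes, 51 without tied genes and 7 under library median centring. Without tied genes 1 gene, Rplp1, was lower at the unadjusted p, as were 716 of all 11894 genes in that fit. Centring libraries on their medians left 1 gene below both controls. Without the paralogs 2 core genes lay above both controls. Leaving out each library in turn gave a median of -0.32 to 0.22 (small subunit -0.30 to 0.21, large subunit -0.32 to 0.24). It left 4 to 56 genes above the controls kept and 3 to 70 below. The extremes came from leaving out Gata4 KO 1 (70 below, against 28.1% of all varying genes) or Gata4 KO 2 (56 above, against 29.2%). Of 28 named genes, 20 changed sign when a library was left out: Rpl10 (-0.059 to 0.051), Rpl11 (-0.34 to 0.18), Rpl22 (-0.32 to 0.33), Rpl23 (-0.12 to 0.67), Rpl3 (-0.095 to 0.60), Rpl36a (-0.32 to 0.39), Rpl39 (-0.46 to 0.090), Rpl3l (-1.53 to 0.37), Rpl5 (-0.13 to 0.62), Rpl7 (-0.53 to 0.43), Rplp0 (-0.25 to 0.24), Rplp2 (-0.45 to 0.17), Rps14 (-0.66 to 0.12), Rps19 (-0.28 to 0.40), Rps27 (-0.43 to 0.17), Rps27a (-0.28 to 0.44), Rps4x (-0.38 to 0.35), Rps4y2 (-1.53 to 0.16), Rps6 (-0.23 to 0.30) and Rpsa (-0.47 to 0.14). Rpl12, Rpl21, Rpl22l1, Rpl30, Rpl4, Rpl7l1, Rplp1 and Rps27l kept their sign. Under library median centring Rpl10 (0.012), Rplp0 (0.014) and Rps4x (0.0026) changed sign, and under quantile normalization Rpl10 (0.014), Rpl7 (0.012), Rplp0 (0.062) and Rps4x (0.037). With 2 libraries a group and unknown depth, the 95% interval of a ribosomal protein gene reached a median of 0.76 to either side of its difference.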
